A study of Mus musculus with 2 samples.

Results

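The genes described here encode the factors that start and elongate protein chains on cytoplasmic ribosomes, measured in mouse C2C12 myoblasts with a stable knockdown of Mybbp1a. They were taken by name: every probe whose gene name on the array began with Eif1 to Eif6, or with Eef1 or Eef2, was included, and the eIF2 kinases (Eif2ak) were not. The rule found 57 genes with 131 probes, of 41174 distinct probes on the array. Tests were limited to probes that stood clear of background on both arrays in 1 dye or both, which 121 of the 131 did. This left 55 of the 57 genes, among 18065 tested genes, and the brightest probe stood for its gene. The untested genes were Eif2b3, a subunit of the exchange factor eIF2B that was well above background on 1 array only, and Eif2s3y, the Y-linked copy of the eIF2 gamma subunit, which stood clear of background on neither array. The eIF3 subunits carried older names on the array (Eif3s1 and the like) and are given here by their current symbols. The genes that the array calls Eif2c1 to Eif2c4 are now Ago1 to Ago4, the Argonaute proteins that bind small RNAs. They are no initiation factors, so they are given as a group of their own, and 51 tested translation factor genes remained without them.

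Gene expression was measured on 2 two-colour arrays. On each, Cy5 marked RNA of C2C12 cells that stably expressed a short hairpin RNA against Mybbp1a, and Cy3 marked RNA of C2C12 cells that stably expressed a control hairpin. C2C12 is an established myoblast line, from leg muscle of an adult C3H mouse per the labels. Both kinds of cells were mixtures of stable clones and grew at subconfluent density in medium with 20% fetal bovine serum, so both carried a stable hairpin and were proliferating. The labels call the arrays biological replicates without saying whether they came from separate infections or cultures, so the p-values speak only of how far these samples differ, a difference that may be technical. Both arrays had the same dye orientation, so a dye effect that normalization leaves in place cannot be told apart from an effect of the knockdown. Slide and replicate cannot be told apart either, because each array was on a slide of its own.

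Ratios are given as log2 of knockdown over control after loess normalization, array 1 first, with the mean ± SD over both arrays where a mean is given. A negative ratio means less signal in knockdown RNA. Mybbp1a, the gene the hairpin targets, had ratios of -1.64 and -1.91 (limma adjusted p = 0.176), so it was lower in the RNA labelled as knockdown on both arrays. Before normalization, the median spot signal on array 1 was 329 in Cy5 (knockdown RNA) and 159 in Cy3 (control RNA). On array 2 it was 449 in Cy5 and 184 in Cy3. All 8 of 8 myoblast markers were well above background in both dyes on both arrays, against 9 of 20 markers in 5 lists of other cell types. Of the 8, 5 were higher on both arrays and 1, Chrna1, was lower, against 40.6% and 29.4% of all tested genes. Myog, the transcription factor that starts differentiation, had the largest mean among them, with ratios of 0.79 and 0.51. The summed level of the 8 markers was 141477 and 121601 in knockdown RNA, against 146524 and 123774 in control RNA. Chrna1, at 84700 and 77298 in knockdown RNA, made up most of that sum. Of the endothelial markers, Cdh5 had ratios of 1.03 and 0.68 at levels near background, Tek had 0.13 and 0.22, and Pecam1 and Kdr were not tested. Their part in the results below was not tested. In RNA of whole cultures, fewer cells of a type and less RNA per cell cannot be told apart.

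Initiation begins when eIF2, loaded with GTP and the initiator tRNA, joins the small ribosomal subunit together with eIF1, eIF1A, eIF5 and eIF3. The eIF4F complex binds the mRNA cap through eIF4E, bridges through eIF4G and unwinds the leader with the helicase eIF4A, and the eIF4E-binding proteins block it when they are not phosphorylated. After the start codon is found, eIF5B joins the large subunit, eIF2B recharges eIF2 with GTP, and the eEF1 complex and eEF2 bring in each aminoacyl-tRNA and move the ribosome on. Growing myoblasts depend on this machinery, and its activity is set largely by phosphorylation, which arrays of RNA do not measure.

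Most translation factor transcripts had slightly lower ratios in knockdown cells after loess, and none was called there. After loess normalization, 31 of the 55 genes (56.4%) were lower on both arrays, against 29.4% of all tested genes, and 13 (23.6%) were higher on both, against 40.6% of all tested genes. Under median centring of each array in place of loess, which moved the median of all tested genes from 0.03 to 0.21, only 1 gene was lower on both arrays, against 12.1% of all tested genes, and 35 (63.6%) were higher, against 65.5%. There 10 of the 55 (18.2%) were called, 9 higher and 1 lower, against 17.1% of all tested genes, so these shares were near the background, apart from the single lower gene. The gene lower on both arrays there, also the 1 called lower, was Eef1a2, whose signal was close to background. Those called higher were Ago1, an Argonaute gene, and Eef1a1, Eef1b2, Eef1d, Eef2, Eif1, Eif3e, Eif3h and Eif3l. The median of the 55 genes was -0.11 after loess (-0.07 on array 1 and -0.11 on array 2), beside 0.03 over all tested genes. The 51 genes without the Argonautes had a median of -0.16, with 30 lower and 12 higher on both arrays. With limma and Benjamini-Hochberg adjustment over all tested genes, 0 of the 55 passed an adjusted p of 0.05, as did 0 of 18065 genes (0%), and the lowest adjusted p among them was 0.187. At an unadjusted limma p under 0.05, 11 (20%) were lower, against 7.5% of all tested genes, and 2 (3.64%) were higher, against 13.4%. A single factor, Eif3g, had a log2 ratio below -0.32 on both arrays, against 3.22% of all tested genes, and 0 were above 0.32 on both, against 7.68%. None of the 55 reached 2-fold on both arrays in either direction, beside 0.631% of all tested genes higher and 0.0554% lower. The smallest p an exact sign-flip test can give with 2 arrays is 0.5.

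**Figure D1:**
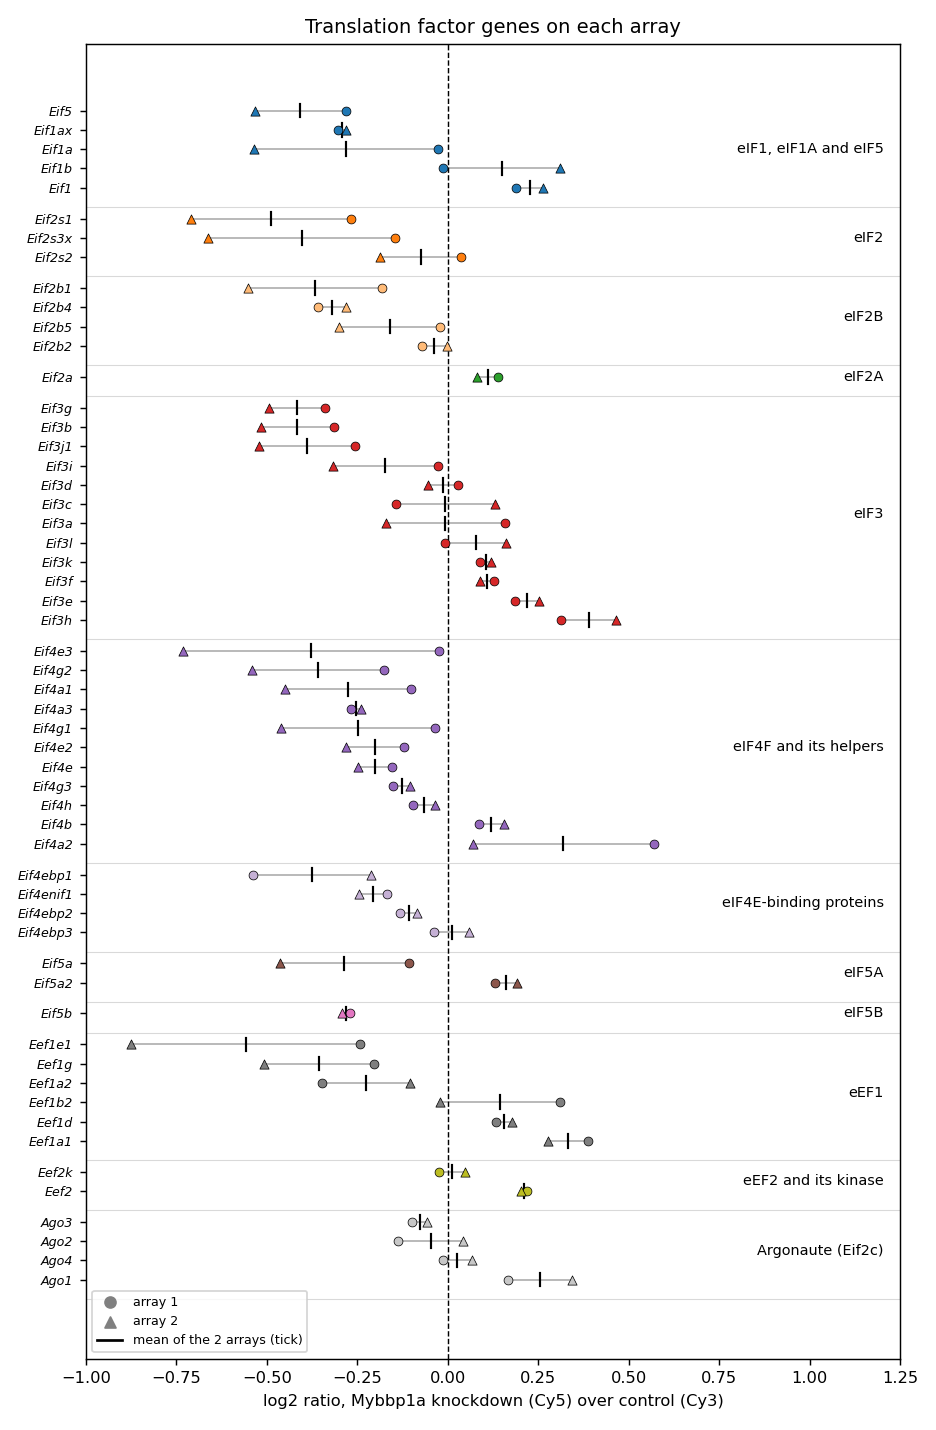
Log2 ratio of knockdown over control (horizontal axis) for each of the 55 tested genes (rows, grouped by factor complex) after loess normalization. Circles are array 1, triangles array 2 and ticks the mean. 31 genes lie left of 0 on both arrays and 13 lie right of it, while under median centring 1 gene lies left and 35 right.

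Translation factor transcripts are bright, and the ratio of all genes moved with brightness, so each gene was also set against the median ratio of tested genes in the same brightness bin, 1 log2 unit wide, on each array. This comparison was chosen after the ratios were seen. After loess, 32 of the 55 genes lay below the median of equally bright genes on both arrays, against 34.7% of all tested genes, and 13 lay above it, against 34.7%. Under median centring 32 lay below, against 35.1%, and 12 lay above, against 35.1%. All 32 that lay below after loess also lay below under median centring. Loess and the bin medians both take out a trend with brightness, so this overlap was largely fixed in advance. It is therefore no separate support for the lower ratios. The median distance from equally bright genes was -0.14 after loess and -0.15 under median centring. The excess of lower genes sat at intermediate and high intensity: among 17 factors with a mean log2 intensity from 12 to 14 the median ratio was -0.20, against 0.00 for all genes there, and among 18 factors from 14 to 16 it was -0.24, against -0.04. Among the 11 brightest factors, at 16 and above, the median was 0.08, against 0.17 for all 460 genes there.

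**Figure D2:**
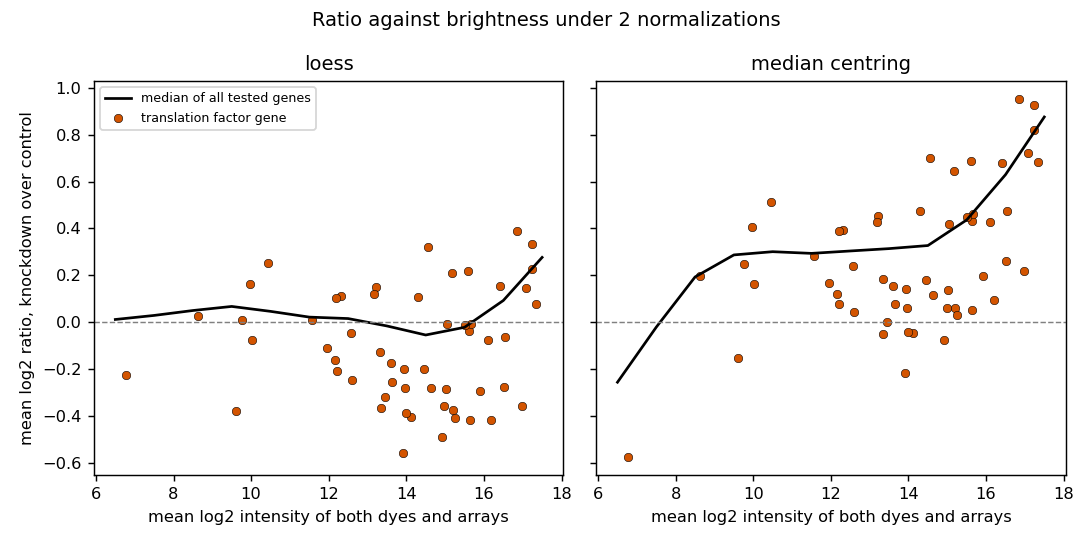
Mean log2 ratio of knockdown over control (vertical axis) against the mean log2 intensity over both dyes and arrays (horizontal axis), after loess (left) and after median centring (right). Points are the 55 genes and the line joins the medians of all tested genes in bins 1 log2 unit wide. Most points lie below the line in both panels, while their position relative to 0 differs between the panels.

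Among the factors that scan for the start codon, 3 of 5 were lower on both arrays after loess. All 3 had positive means under median centring. Eif5, which triggers GTP hydrolysis by eIF2 and then holds it in the GDP-bound state, read 35060 and 32767 in knockdown RNA, against 42625 and 47423 in control RNA. Its ratios were -0.28 and -0.53 (mean -0.41 ± 0.18, limma adjusted p = 0.200). Eif1ax, the X-linked eIF1A gene, which the array calls Eif1ay, read 56095 and 55316 in knockdown RNA, against 69206 and 67154 in control RNA, with ratios of -0.30 and -0.28. In both genes each control reading of the brightest probe was above both knockdown readings. The second probe of Eif1ax gave ratios of 0.13 and -0.39, and its readings of both groups overlapped. Eif1a, a second eIF1A gene, had ratios of -0.03 and -0.54 and so was clearly lower on array 2 only. Eif1, which guards start codon fidelity, had ratios of 0.19 and 0.26 but a mean distance of -0.04 from equally bright genes after loess, and its close relative Eif1b was split, with -0.01 and 0.31.

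The factor that carries the initiator tRNA was lower in 2 of its 3 subunits. Eif2s1, the alpha subunit whose phosphorylation shuts initiation down under stress, read 28086 and 24119 in knockdown RNA, against 33800 and 39432 in control RNA. Its ratios were -0.27 and -0.71 (mean -0.49 ± 0.31, limma adjusted p = 0.214), a 1.40-fold lower mean, and the readings of both groups did not overlap. Eif2s3x, the X-linked gamma subunit that binds GTP and the tRNA, had ratios of -0.15 and -0.66. Its Y-linked copy was too dim to test. Eif2s2, the beta subunit, was split at 0.04 and -0.19. The mean of Eif2s3x stayed negative under every alternative with both arrays. That of Eif2s1 did so under each alternative that gave it a value, which leaves out the deposited value table. Under median centring the means were -0.07 for Eif2s1 and -0.05 for Eif2s3x, and neither gene was lower on both arrays. Both were further from 0 on array 2, so their means rest more on that array.

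All 4 tested subunits of eIF2B, the exchange factor that reloads eIF2 with GTP, were lower on both arrays after loess, with a median of -0.24, while under median centring the median was 0.06. Eif2b1, the alpha subunit, had ratios of -0.18 and -0.55. Its mean stayed negative under median centring (-0.05), where it was not lower on both arrays. Eif2b4, the delta subunit, was alike on both arrays at -0.36 and -0.28, and read 10951 and 9269 in knockdown RNA, against 14028 and 11259 in control RNA. Eif2b5, the catalytic epsilon subunit, had -0.02 and -0.30, and Eif2b2, the beta subunit, -0.07 and a value just under 0, so neither was clearly lower on both arrays. Eif2a, a separate initiation factor that is not an eIF2 subunit, had 0.14 and 0.08.

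By their brightest probes, the 12 tested subunits of eIF3, the largest initiation factor and the scaffold of the preinitiation complex, split evenly after loess. Of them 4 were lower, 4 higher and 4 of mixed sign, and the median was -0.01. Under median centring the median was 0.43. Eif3g read 68245 and 61551 in knockdown RNA, against 86377 and 86690 in control RNA. Its ratios were -0.34 and -0.49 (mean -0.42 ± 0.11), a 1.34-fold lower mean, with a limma adjusted p of 0.187, the lowest among the 55 genes. Eif3b, the subunit around which the eIF3b, eIF3g and eIF3i module is built, read 45299 and 43094 in knockdown RNA, against 56342 and 61667 in control RNA, with ratios of -0.31 and -0.52. The readings of both groups did not overlap for either subunit. Eif3i, the third member of that module, had -0.03 and -0.32. Eif3j1, a loosely bound subunit, had -0.26 and -0.52, and all 3 of its probes were lower on both arrays. The files place those probes on chromosome 18, where the RefSeq gene table has the near-identical copy Eif3j2, so which copy was measured is uncertain. Under median centring the means of Eif3g and Eif3b were 0.09 and 0.05. That of Eif3j1 stayed below 0 at -0.04, though it was not lower on both arrays there.

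The other 4 subunits with 1 sign on both arrays were higher in knockdown RNA. Eif3h, an MPN domain subunit, read 140667 and 130409 in knockdown RNA, against 113256 and 94463 in control RNA. Its ratios were 0.31 and 0.47 (mean 0.39 ± 0.11, limma adjusted p = 0.189), a 1.31-fold higher mean, and it lay 0.32 above equally bright genes. Eif3e, a PCI domain subunit, read 61842 and 46403 in knockdown RNA, against 54409 and 38969 in control RNA, with ratios of 0.19 and 0.25. Within each array Eif3e was higher in knockdown RNA, but across arrays the readings of both groups overlapped. Eif3f, the other MPN domain subunit, had 0.13 and 0.09, and Eif3k, a small peripheral subunit, had 0.09 and 0.12. Eif3e, Eif3f and Eif3k stayed positive under every alternative with both arrays, and so did Eif3h wherever it had a value, which it lacks in the deposited value table. In their brightest probes, Eif3a (0.16 and -0.17), Eif3c (-0.14 and 0.13), Eif3d (0.03 and -0.06) and Eif3l (-0.01 and 0.16) took opposite signs on the arrays. Yet 3 of 5 tested probes of Eif3c, 2 of 3 of Eif3a and 1 of 2 of Eif3d were lower on both arrays. None of their probes was higher on both, and Eif3l had 1 tested probe.

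The array reads each gene through probes of 60 bases, and the letters of the probes that carry the values above are shown here, as the array files give them, with the position the files state on build mm8. Eif3g was read at chr9:20645053-20645112 on the minus strand, Eif3b at chr5:140695727-140695786 on the plus strand, Eif2s1 at chr12:79803741-79803800 on the plus strand and Eif3h at chr15:51616718-51616777 on the minus strand.
Eif3g: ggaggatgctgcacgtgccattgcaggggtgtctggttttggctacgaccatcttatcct
Eif3b: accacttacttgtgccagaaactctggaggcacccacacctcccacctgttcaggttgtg
Eif2s1: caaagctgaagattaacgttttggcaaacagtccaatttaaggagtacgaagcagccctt
Eif3h: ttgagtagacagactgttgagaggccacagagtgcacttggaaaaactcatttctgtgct
The GC content of these probes was 55.0% for Eif3g and Eif3b, 41.7% for Eif2s1 and 45% for Eif3h. The exon or untranslated region under each probe was not determined, since no annotation of build mm8 was used.

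**Figure D3:**
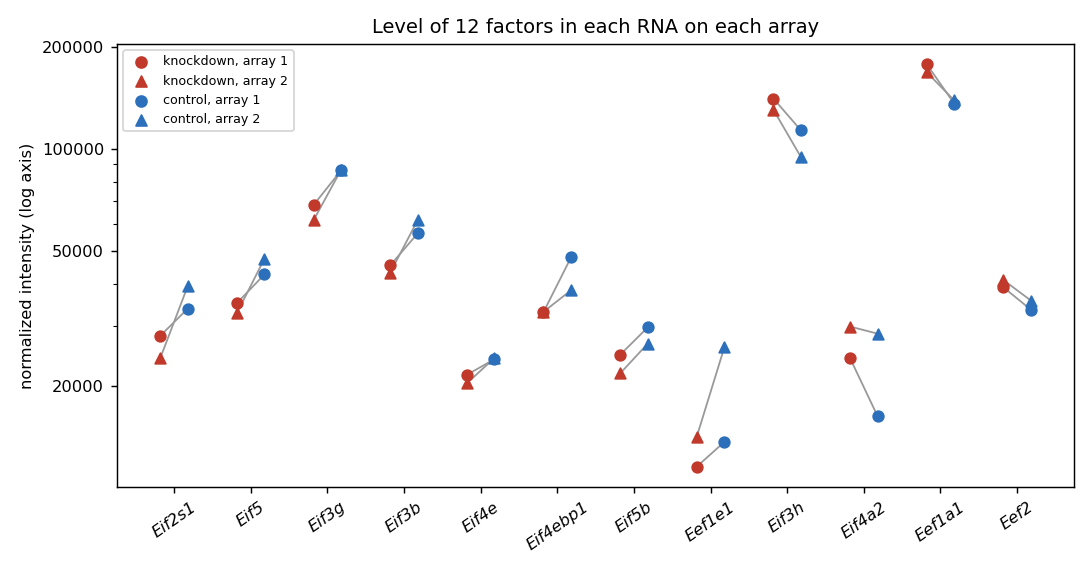
Normalized intensity (vertical log axis) of 12 factors in knockdown RNA (red, left of each pair) and control RNA (blue, right), with circles for array 1 and triangles for array 2 and a line joining both dyes of an array. The first 8 factors slope up to the control and the last 4 slope down to it after loess. Under median centring the mean ratios of 6 of the first 8 turn positive. Those of Eif2s1 (-0.07) and Eef1e1 (-0.22) stay below 0, but neither gene is lower on both arrays there.

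Of 11 genes grouped here with the cap-binding complex eIF4F and its helpers, 9 were lower and 2 were higher on both arrays after loess. Their median was -0.20, against 0.18 under median centring. Eif4g2, a relative of eIF4G without its eIF4E-binding part, had ratios of -0.18 and -0.54. Eif4e3, a dim eIF4E relative, had -0.02 and -0.73, so its mean rests on array 2. Eif4a1, the main eIF4A helicase, read 101839 and 71389 in knockdown RNA, against 109320 and 97533 in control RNA, with ratios of -0.10 and -0.45. Eif4a3, the helicase of the exon junction complex rather than of eIF4F, was alike on both arrays at -0.27 and -0.24. Eif4e, the cap-binding protein itself, read 21550 and 20335 in knockdown RNA, against 23962 and 24166 in control RNA, with ratios of -0.15 and -0.25 (mean -0.20 ± 0.07, limma adjusted p = 0.293). Eif4g1, the main scaffold, had -0.03 and -0.46. Eif4e2 (-0.12 and -0.28), Eif4g3 (-0.15 and -0.10) and Eif4h (-0.10 and -0.03), the last a stimulator of eIF4A, were also below 0 on both arrays.

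The exceptions were a helicase and a helicase partner. Eif4a2, the second eIF4A gene, read 24137 and 29911 in knockdown RNA, against 16268 and 28503 in control RNA. Its ratios of 0.57 and 0.07 were far apart, and its second probe gave 0.81 and 0.20, so both probes were higher on both arrays and both more so on array 1. Eif4b, which stimulates eIF4A, had 0.09 and 0.15, and its 3 probes were all higher on both arrays. Eif4a1 and Eif4a2, nearly interchangeable in textbook accounts of initiation, thus had mean ratios of opposite sign after loess, -0.28 and 0.32, and under median centring they were 0.26 and 0.70. The second tested probe of Eif4a1 gave 0.14 and -0.43 after loess, so that probe was not lower on both arrays.

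Of the repressors that compete with eIF4G for eIF4E, Eif4ebp1 read 32978 and 33051 in knockdown RNA, against 47841 and 38270 in control RNA. Its ratios were -0.54 and -0.21 (mean -0.37 ± 0.23, limma adjusted p = 0.229), and its second probe gave -0.52 and -0.18. Both control readings lay above both knockdown readings, and the knockdown readings were nearly equal. It differed from most of the lower genes in that array 1 gave the stronger ratio: 21 of the 31 lower genes were further from 0 on array 2. Eif4ebp2 had -0.13 and -0.08 and Eif4ebp3 was split at -0.04 and 0.06. Eif4enif1, which carries eIF4E into the nucleus and to P-bodies, had -0.17 and -0.24. The median of these 4 genes was -0.16 after loess and 0.12 under median centring, where Eif4ebp1 was at 0.06. The Eif4ebp1 probe lies at chr8:28741351-28741410 on the plus strand of build mm8.
Eif4ebp1: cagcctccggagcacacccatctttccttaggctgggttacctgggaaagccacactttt

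Eif5b, which joins the ribosomal subunits, was among the most even of the lower genes, with ratios of -0.27 and -0.29, readings of 24682 and 21750 in knockdown RNA against 29741 and 26631 in control RNA, and all 5 of its probes lower on both arrays. Under median centring it was 0.11. Eif5a, the factor that helps ribosomes past proline stretches and is the only known carrier of hypusine, had -0.11 and -0.46, and its second probe -0.31 and -0.75. Its dimmer relative Eif5a2 had 0.13 and 0.19.

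The genes named for elongation held both the lowest and some of the highest ratios, and after loess 3 of 6 eEF1 genes were lower on both arrays and 2 higher. Eef1e1, an auxiliary protein of the aminoacyl-tRNA synthetase complex with a family resemblance to eEF1 rather than an elongation factor, read 11555 and 14156 in knockdown RNA, against 13663 and 25961 in control RNA. Its ratios of -0.24 and -0.87 (mean -0.56 ± 0.45, limma adjusted p = 0.241) made it the lowest of the 55 genes by mean, on a single probe, and the readings of both groups overlapped across arrays. Its mean stayed negative under every alternative with both arrays, but under median centring it was not lower on both arrays. Eef1g, a structural subunit of the eEF1 exchange complex, had -0.20 and -0.51 and lay 0.42 below equally bright genes (-0.42), while under median centring its ratio was 0.22. Eef1a1, which delivers aminoacyl-tRNA to the ribosome, read 177673 and 168177 in knockdown RNA, against 135830 and 138830 in control RNA. Its ratios were 0.39 and 0.28 (mean 0.33 ± 0.08, limma adjusted p = 0.200), yet equally bright genes were nearly as high and it lay only 0.06 above them.

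Eef1d and Eef1b2, the subunits that exchange GDP for GTP on eEF1A, had 0.13 and 0.18, and 0.31 and -0.02. Eef1a2, the eEF1A form of mature muscle and neurons, was close to background, well above it in each dye on 1 array only, with ratios of -0.35 and -0.10, and its level in these cells is not a firm measurement. Eef2, which moves the ribosome by 1 codon, read 39063 and 41035 in knockdown RNA, against 33537 and 35684 in control RNA. Its ratios were 0.22 and 0.20 (mean 0.21 ± 0.01, limma adjusted p = 0.268), the readings of both groups did not overlap, and it lay 0.23 above equally bright genes. Its other probes gave 0.05 and -0.02, and 0.28 and 0.01, so the higher ratio was not shared by every probe. Eef2k, the kinase that inactivates eEF2, was split at -0.02 and 0.05. The median of the 6 eEF1 genes was -0.04 after loess, 0.45 under median centring and -0.32 in the deposited value table. The probes of the lowest and the brightest of these genes are at chr13:38653675-38653734 and chr9:78264262-78264321, both on the minus strand of build mm8.
Eef1e1: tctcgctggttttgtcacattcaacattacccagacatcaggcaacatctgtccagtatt
Eef1a1: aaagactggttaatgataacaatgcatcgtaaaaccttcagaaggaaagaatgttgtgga

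Of the Argonaute genes, which entered by their old name, 1 was higher, 1 lower and 2 of mixed sign. Ago1 had 0.17 and 0.34 and a mean distance of 0.21 from equally bright genes, Ago3 -0.10 and -0.06, Ago2 -0.14 and 0.04, and Ago4 -0.01 and 0.07. Their median was -0.01 after loess and 0.22 under median centring. The probes of Ago2 and of Ago3 disagreed in sign.

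**Figure D4:**
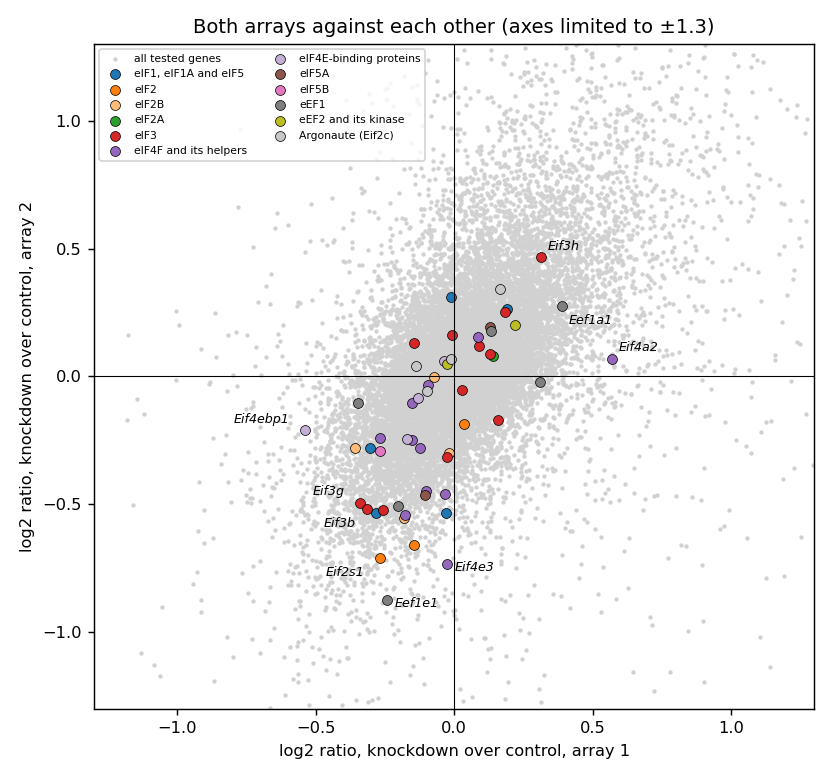
Log2 ratio of knockdown over control on array 1 (horizontal) against array 2 (vertical) after loess, with all 18065 tested genes in grey and the 55 genes coloured by complex. 31 of the 55 lie below 0 on both axes and 13 above 0 on both, and under median centring 1 and 35 do.

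Precision was limited by 2 arrays. The mean exceeded the SD over arrays in 37 of 55 genes. The median reach of the 95% limma interval to either side of the mean was 0.27. That interval left out 0 in 13 genes, which equals an unadjusted limma p under 0.05. The 13 were 11 lower genes (20% of the 55) and 2 higher ones (3.64%), against 7.5% lower and 13.4% higher of all tested genes. Ratios spread more widely on array 2, with an SD over all tested genes of 0.43, against 0.31 on array 1. 54 of the 55 genes were well above background in both dyes on both arrays, and none was saturated. In 34 of them, against 16.3% of all tested genes, at least 1 spot reading had been rescaled by the scanner software from a scan at lower gain. These 34 genes had a median of -0.20, with 20 lower and 8 higher on both arrays, and the 21 without such a spot had a median of -0.08, with 11 lower and 5 higher. The part of the rescaling in the ratios was not tested further.

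Different probes of a gene served as a second reading of the same RNA. In 28 of the 39 genes read by several tested probes, all probe means fell on the same side of 0. Eif2s1, Eif2s3x, Eif2b4, Eif3b, Eif3j1, Eif4e3, Eif4ebp1, Eif4g1, Eif4g3, Eif5, Eif5a, Eif5b and Eef1g were lower on both arrays in every tested probe after loess. Eif4e2, Eif4enif1, Eif4ebp3, Eif2a, Eif5a2 and Eef1d each had probe means on both sides. For Eif4g2, 3 probes were lower on both arrays, while the probe at chr7:110862273-110862332 gave 0.49 and 0.24. It lies downstream of the brightest probe, at chr7:110863744-110863803, on the minus strand of build mm8. Both are shown because the gene's direction depends on which is read.
Eif4g2, brightest probe: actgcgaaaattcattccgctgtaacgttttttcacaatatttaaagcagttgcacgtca
Eif4g2, opposite probe: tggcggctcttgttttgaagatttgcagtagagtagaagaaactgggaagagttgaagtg

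Eif1 and Eif1a had probes that the files place on different chromosomes. The brightest Eif1 probe, at chr11:100137465-100137525 on the plus strand, gave 0.19 and 0.26, and the other, at chr1:171290399-171290458 on the minus strand, gave -0.21 and -0.19. The longest run of letters they share is 6 bases. For Eif1a, the brightest probe and 1 other gave -0.03 and -0.54, and -0.02 and -0.40, while the probes at chr12:88406364-88406423 and chr12:88406395-88406454 on the plus strand, gave 0.50 and -0.15, and 0.57 and -0.30. The last probes overlap by 29 bases by position, of which 27 match, and capitals mark the longest run they share, 16 bases. Both were positive on array 1 and negative on array 2. The values of Eif1 and Eif1a are uncertain, since the files place their probes at more than 1 locus and near-identical copies cannot be told apart.
Eif1, brightest probe: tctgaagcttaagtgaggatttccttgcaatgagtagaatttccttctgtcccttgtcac
Eif1, other probe: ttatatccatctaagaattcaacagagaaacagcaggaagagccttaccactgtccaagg
Eif1a, first probe: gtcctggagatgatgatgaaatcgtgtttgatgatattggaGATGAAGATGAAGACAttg
Eif1a, second probe: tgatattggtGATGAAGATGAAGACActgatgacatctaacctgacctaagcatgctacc

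**Figure D5:**
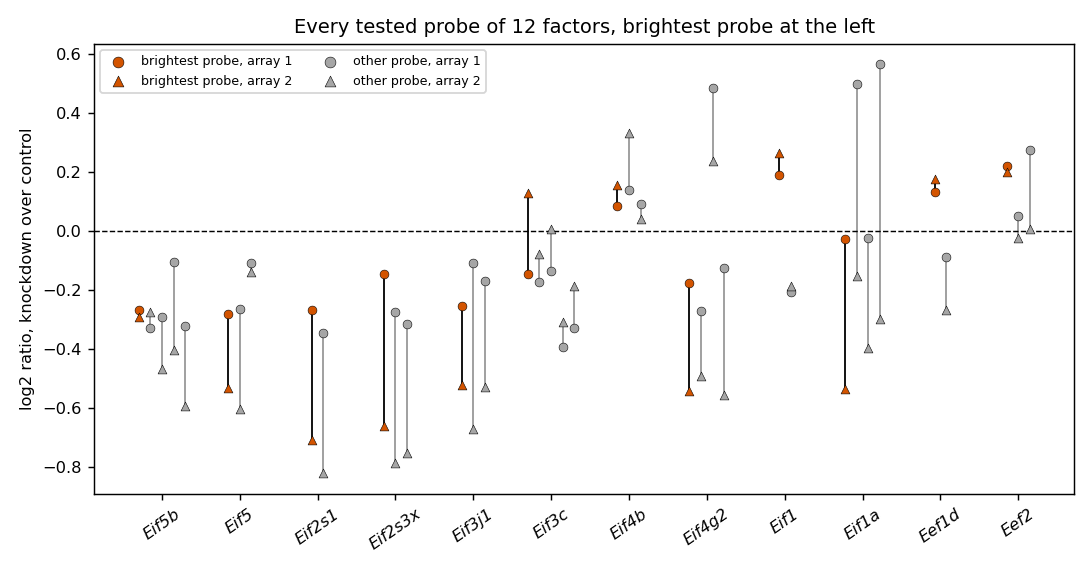
Log2 ratio of knockdown over control (vertical axis) for every tested probe of 12 factors after loess, with circles for array 1, triangles for array 2, and the brightest probe in orange at the left of each gene. All probes of Eif5b, Eif5, Eif2s1, Eif2s3x and Eif3j1 lie below 0, and those of Eif4g2, Eif1 and Eef1d lie on both sides. Under median centring the brightest probes of Eif5b, Eif5 and Eif4g2 have means above 0.

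The promoters were searched for CACGTG, the E-box that MYC and related factors bind and that reads the same on both strands, in RefSeq windows of build GRCm38.p6 reaching from 250 bases before to 50 bases after each start. Of 57 genes, 45 had a window, and 12 of the 45 (26.7%) held the motif, against 11% of the 11473 tested genes with a window. Of all windows in the table, 7.15% held it. The 12 genes with the motif had a median ratio of 0.00, with 5 (41.7%) lower on both arrays, and the 32 tested genes without it had -0.14, with 20 (62.5%) lower. Over all tested genes with a window the medians were 0.00 with the motif and 0.03 without it, and the shares lower on both arrays ran the other way, 36.2% with the motif and 30.2% without it. The sites of a higher factor, Eef2, and of lower ones, Eif4e, Eif4a1 and Eif4g1, are shown with the motif in capitals. Eif4e and Eif4g1 hold 2 matches each, of which 1 is shown. They lie at chr10:81176576-81176605, chr3:138527192-138527221 and chr16:20672661-20672690 on the plus strand, and for Eif4a1 at chr11:69672595-69672624 on the minus strand, of build GRCm38.
Eef2: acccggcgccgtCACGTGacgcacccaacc
Eif4e: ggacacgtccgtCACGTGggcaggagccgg
Eif4g1: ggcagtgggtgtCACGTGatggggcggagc
Eif4a1: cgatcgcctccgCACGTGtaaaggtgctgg
A match is a description of these letters and no measure of binding.

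Genes that work beside the factors were described from 8 lists with 38 genes, all tested. After loess, 23 (60.5%) were lower on both arrays, against 29.4% of all tested genes, and 10 were higher, against 40.6%. The median was -0.15, and 0 passed the limma adjusted p of 0.05, as over all tested genes. At an unadjusted limma p under 0.05, 9 were lower, against 7.5% of all tested genes, and 4 were higher, against 13.4%. Under median centring 1 was lower on both arrays, against 12.1% of all tested genes. There 25 of the 38 were higher, near the 65.5% of all tested genes, with a median of 0.15 beside 0.21. The group with the lowest median was termination and recycling, where 4 of 4 were lower on both arrays with a median of -0.46, and under median centring 1 of 4 was, with a median of -0.17. Etf1, the release factor that reads stop codons, read 14400 and 10266 in knockdown RNA, against 18523 and 17943 in control RNA, with ratios of -0.36 and -0.81. Abce1, which splits ribosomes for a new round, had -0.31 and -0.65. Gspt2 and Gspt1, the GTPase partners of the release factor, had -0.50 and -0.39, and -0.05 and -0.54.

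Pabpc4, a poly(A)-binding protein, had -0.31 and -1.0, while Pabpc1, the main form, was at 0.09 and 0.02 and Paip2, which displaces poly(A)-binding protein from the tail, had 0.25 and 0.41. Among 13 genes of mTORC1 and MAPK input, 6 were lower and 4 higher after loess, while under median centring none was lower and 10 were higher: Mknk1, a kinase of eIF4E, had 0.30 and 0.61, and Rheb, the GTPase that activates mTORC1, had -0.42 and -0.32. The 4 eIF2 kinases had a median of 0.07, with Eif2ak2, the kinase activated by double-stranded RNA, at 0.32 and 0.28. All 3 genes of the eIF2 phosphatase were lower, with a median of -0.17 after loess and 0.12 under median centring. Dhps and Dohh, the enzymes that make hypusine on eIF5A, were lower too, at -0.27 and -0.39, and -0.03 and -0.28, but their median was 0.13 under median centring. Denr and Mcts1, which act together in reinitiation, had -0.14 and -0.58, and 0.25 and 0.04, in that order. Of 6 mitochondrial factors, 4 were lower, with a median of -0.17, against 0.12 under median centring.

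The array also holds 9 genes whose current symbols would fit the rule but whose array names did not. Eif6, which keeps ribosomal subunits apart and is also needed to make the large subunit, had -0.20 and -0.55, and Eif3m, an eIF3 subunit, had -0.20 and -0.30. Eif2d, an alternative initiation factor, had 0.24 and 0.36, and Eif1ad had -0.22 and -0.59. The other five encode methyltransferases of elongation factors, among which Eef1aknmt had -0.36 and -0.51 and Eef2kmt, which modifies eEF2, had 0.57 and 0.29. Under median centring Eif6 and Eif3m had means of 0.034 and 0.21. The mean of Eif1ad there was -0.12, from 0.10 on array 1 and -0.34 on array 2.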

How the data were processed

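Agilent Feature Extraction 9.5.3.1 read the images, per the submitters' processing notes. Mean and background intensity were deposited without background subtraction. The software's own background-subtracted, dye-normalized intensity, its log10 ratio of Cy5 over Cy3 and that ratio's p-value from an error model of a single array are also given, per the file headers. The deposited table of the series holds log2 ratios of knockdown over control: for probes with 1 spot, all values were within 0.001 of the log10 ratio on a log2 scale. Its median is 0 on both arrays. Blank entries numbered 1165 on array 1 and 2004 on array 2, for an unknown reason.

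Normexp (offset 50) and loess within arrays (span 0.3) were run in limma 3.58.1, R 4.3.3. Control spots, 1639 per array, had weight 0 and were left out afterwards, as were 154 and 237 outlier spots. Spots of 1 probe were averaged. Names were updated by accession in the RefSeq gene table for 23374 probes. Ratios were tested against 0 with limma (lmFit, eBayes, two-sided) with 1 residual degree of freedom and Benjamini-Hochberg adjustment over 18065 genes. The fit was tested on simulated data. Arrays give intensities, not counts, and their number limits the precision.

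The members, gene lists and rules were chosen with earlier results of these data known. Within each complex, values were given for up to 3 members per direction with the largest mean ratio among those of 1 sign on both arrays, and for a set of central factors. Alternatives were median centring, Aquantile scaling, processed signals, no background correction, 2 other filters on dim probes, the mean over probes, array gene names, no saturated spots, the value table and each array alone. Leaving out Argonautes or rescaled spots was chosen after seeing the data.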

Additional observations from a re-analysis of the deposited data

How the results depend on the processing

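Each ratio already pairs knockdown and control RNA on 1 array, and the test of ratios against 0 uses that pairing. No further pairing was possible, because no 2 groups of arrays share replicate numbers. Median centring changed most: Mybbp1a was at -1.50 and called, 10 members were called (9 higher, 1 lower), 35 were higher and 1 lower on both arrays, and their median was 0.20. The medians by complex became 0.22 (Argonaute), 0.45 (eEF1), 0.20 (eIF1, eIF1A and eIF5), -0.048 (eIF2), 0.062 (eIF2B), 0.43 (eIF3), 0.12 (eIF4E-binding proteins) and 0.18 (eIF4F). Of all tested genes 3091 were called there, against 0 after loess, and the cause was not tested. Members that changed sign were Ago3 (0.16), Ago2 (0.24), Eef1g (0.22), Eif5 (0.032), Eif1ax (0.20), Eif1a (0.061), Eif2s2 (0.43), Eif2b4 (0.0030), Eif2b5 (0.12), Eif2b2 (0.43), Eif3g (0.094), Eif3b (0.052), Eif3i (0.15), Eif3d (0.45), Eif3c (0.46), Eif3a (0.42), Eif4ebp1 (0.063), Eif4enif1 (0.080), Eif4ebp2 (0.17), Eif4g2 (0.059), Eif4a1 (0.26), Eif4a3 (0.078), Eif4g1 (0.045), Eif4e2 (0.14), Eif4e (0.18), Eif4g3 (0.19), Eif4h (0.47), Eif5a (0.14) and Eif5b (0.11).

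The members' median was -0.080 with processed signals, -0.078 with no filter on dim probes, -0.23 in the deposited value table (44 members), -0.16 without the Argonautes and -0.078 without rescaled spots, where 5 were higher and 11 lower of 21. The eEF1 median was -0.15 with processed signals, -0.0013 with no background correction, 0.14 with both dyes required above background, -0.12 with the mean over probes and -0.32 in the value table. The eIF3 median was -0.048 with processed signals, -0.085 with the mean over probes and -0.10 in the value table. For the eIF4E-binding proteins it was -0.13 with processed signals, -0.16 with no background correction, -0.12 with the mean over probes and -0.28 in the value table. The mean over probes gave 0.068 for the Argonautes and -0.047 for eIF1, eIF1A and eIF5, and the value table gave -0.36 for eIF2B. With processed signals Ago4 (-0.0050), Eif3a (0.077) and Eif3l (-0.051) changed sign, with the mean over probes Ago2 (0.019), Eef1d (-0.011), Eif2a (-0.050) and Eif4ebp3 (-0.019), and in the value table Ago2 (0.13), Ago4 (-0.061), Eef1d (-0.29), Eef2k (-0.050), Eif2a (-0.29), Eif3a (0.021) and Eif4ebp3 (-0.043). The cause was not tested.

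With 1 array left out, 17 to 20 members were higher and 35 to 38 lower, and their median was -0.10 to -0.072. The medians ranged from -0.28 to -0.028 (eIF1, eIF1A and eIF5), -0.66 with array 2 alone to -0.15 with array 1 alone (eIF2), -0.29 to -0.13 (eIF2B), -0.25 to -0.10 (eIF4F), -0.055 to 0.054 (Argonaute), 0.011 to 0.017 (eIF3), -0.063 to -0.035 (eEF1) and -0.15 to -0.15 (eIF4E-binding proteins). Members of mixed sign took that of the array kept, over the ranges Ago2 -0.14 to 0.042, Ago4 -0.013 to 0.067, Eef1b2 -0.022 to 0.31, Eef2k -0.025 to 0.047, Eif1b -0.013 to 0.31, Eif2s2 -0.19 to 0.037, Eif3a -0.17 to 0.16, Eif3c -0.14 to 0.13, Eif3d -0.055 to 0.028, Eif3l -0.0068 to 0.16, Eif4ebp3 -0.037 to 0.060. Of the 55 members, 20 kept the sign of their mean under every alternative with both arrays that gave them a value, 7 lower and 13 higher. Of those 7, only Eef1a2 was lower on both arrays under median centring. The mean of 27 members changed sign only under median centring. Signal near background limits Eef1a2 and Eif2b3.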

Other observations

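Of the factors, 9 whose mRNAs are known to begin with a 5′ terminal oligopyrimidine tract held most of the higher ratios after loess. Such a tract marks many transcripts of the translation machinery. The 9 were Eef1a1, Eef1b2, Eef1d, Eef1g, Eef2, Eif3e, Eif3f, Eif3h and Eif4b, a list chosen after the values were seen and so given without a test. It was not checked for completeness, so the other 42 factors may hold further such mRNAs. Of the 9, 7 were higher and 1 was lower on both arrays, and the median ratio was 0.15 (array 1 0.18, array 2 0.18). Of the other 42 translation factors, 5 were higher and 29 were lower, and the median ratio was -0.20 (array 1 -0.11, array 2 -0.25). The 9 genes are also brighter, with a median log2 intensity of 16.4 against 14. Set against equally bright genes, 7 of the 9 lay above and 2 below on both arrays, and 5 of the other 42 lay above and 29 below. With the mean over probes, 6 of the 9 were higher and 1 lower on both arrays, against 4 higher and 31 lower of the 42. The second tested probe of Eef1d gave -0.09 and -0.27 after loess. In the deposited value table, which holds 6 of the 9, 4 were higher and 2 lower, against 3 higher and 26 lower of 34 others. Under median centring 8 of the 9 and 23 of the 42 were higher, against 65.5% of all tested genes. The part of brightness in this difference was not tested further.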
